A study of Homo sapiens with 6 samples.

Results

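The 35 genes described here are the 13 protein-coding genes of the mitochondrial genome (mtDNA) and 22 nuclear genes whose products copy, transcribe or process it, out of 20532 genes in the count table. The 13 were taken as the rows on chromosome MT with a symbol starting in MT-, and the 22 by name. All 35 were found, one of them, FASTKD4, under its approved symbol TBRG4, and all 35 passed the filter on low counts. RNA came from MDA-MB-231 M3 cells, a human line with a tropism for bone that derives from MDA-MB-231, a triple-negative breast cancer line, and was read with a stranded mRNA kit. The 2 groups of 3 libraries are cells described as untreated or control, and cells in which PRMT1, which places most of the asymmetric dimethyl marks on protein arginines, was knocked down with a small interfering RNA (siPRMT1). The sources used here do not say whether controls were transfected or got a non-targeting siRNA, nor which siRNA sequence was used, and both groups are the same M3 line.

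Total counts per library ran from 16968563 to 20545995. PRMT1 had 3160, 2991 and 3072 counts in controls, against 193, 218 and 181 after knockdown, with no overlap between the groups, and its level was 12.3-fold lower after knockdown. Levels are TMM-scaled CPM, counts relative to library size after edgeR's adjustment for composition, and changes are log2 fold changes of siPRMT1 over control from the quasi-likelihood test of edgeR, with Benjamini-Hochberg adjustment over 13710 tested genes, called at an adjusted p under 0.05. Under this rule 89.3% of all tested genes were called (44.3% higher, 45.0% lower), so a call alone sets no member apart. The labels call the replicates biological but do not say whether they came from separate cultures or transfections. The p-values rest on the spread among these libraries alone, which may be technical. That spread was small, with counts of replicate pairs differing by a chi-square per degree of freedom of 1.05 to 1.38, where sampling noise gives 1. The breast line's markers VIM, KRT8 and KRT18 were at 1817, 526 and 255 CPM in controls, and ESR1 and PGR, the hormone receptor genes this line lacks, stayed under 1 CPM in every library. SPARC, listed with the line's markers, was at 0.495 CPM in controls, EPCAM at 12.4 and the receptor gene ERBB2 at 61.3. Of 13 markers of leukocytes, endothelium and bone cells, 9 were under 1 CPM in every library. The endothelial defining gene CDH5 had 1 count and the leukocyte gene PTPRC 11 counts over all libraries, while CD68 (201 CPM in controls, 372 after knockdown) and PECAM1 (21.03 and 20.03 CPM) were detected, as were the bone genes BGLAP (1.11 and 3.96 CPM) and CTSK (2.83 and 2.82 CPM). The part of such cells in the results was not tested.

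Human mtDNA is a small circle present in many copies per cell. The RNA polymerase POLRMT, with the factors TFAM and TFB2M, transcribes each strand into a long precursor that spans most of the genome, and the mRNAs are released by cutting out the transfer RNAs between them. The heavy strand is the template for every mRNA but that of MT-ND6. Most of the mRNAs then receive a poly(A) tail from MTPAP, are held by the LRPPRC-SLIRP complex and are removed by the PNPT1-SUPV3L1 degradosome, so mRNAs from one precursor can reach different levels. Their products are core subunits of respiratory complexes I, III, IV and V, which also need nuclear-encoded subunits, while complex II is made of nuclear products only.

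Some mRNAs carry more than one gene, which limits what a count per gene can show. MT-ATP8 and MT-ATP6 lie on one mRNA and share 46 bases, 22.2% of the length of MT-ATP8, and MT-ND4L and MT-ND4 lie on another and share 7 bases. The plus strand around each overlap is shown, from the hg38 reference at chrM:8507-8592 and chrM:10740-10786, with the bases that belong to both genes in capitals. They open with the ATG start codon of the downstream gene and close with the stop codon of the upstream one.
MT-ATP8 into MT-ATP6: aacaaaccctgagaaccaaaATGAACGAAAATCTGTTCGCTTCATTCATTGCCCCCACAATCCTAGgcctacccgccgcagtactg
MT-ND4L into MT-ND4: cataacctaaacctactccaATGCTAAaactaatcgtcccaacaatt

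A second feature of these mRNAs is where the coding sequence ends. In 6 of the 13 genes the DNA holds only T or TA after the last whole codon, and the stop codon is completed by the poly(A) tail. The last 15 bases of these genes are shown in the direction of the mRNA, from the hg38 reference, with the incomplete stop in capitals. MT-CO1 and MT-ND6 are added because they end in the unusual triplets AGA and AGG.
MT-ND1: tccccctcaaaccTA
MT-ND2: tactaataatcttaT
MT-ND3: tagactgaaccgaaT
MT-ND4: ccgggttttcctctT
MT-CYB: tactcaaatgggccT
MT-CO3: attgatgagggtctT
MT-CO1: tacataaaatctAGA
MT-ND6: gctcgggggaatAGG

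All 13 mtDNA-encoded genes rose after PRMT1 knockdown, against 44.3% of all tested genes, and 9 of them rose at least 2-fold, against 15.3%. Their median log2 fold change was 1.31, with a range from 0.34 for MT-ND4L to 1.71 for MT-ND6, and the median of all tested genes was -0.00823. Summed, the 13 genes took 5.08, 5.001 and 5.09% of all counts in controls and 8.73, 8.64 and 8.74% after knockdown. The 2 groups did not overlap and the libraries within each lay close together. In RNA from a cell population, more mtDNA-encoded mRNA and less of the other RNA per cell cannot be told apart. Without MT-CO1, the gene with the most counts, the share went from 3.59% ± 0.0484 to 6.88% ± 0.0452 (SD, n = 3 each).

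Library preparation can favour transcripts by length and base composition. A second fit therefore removed differences between libraries that followed either, and its values are called corrected. Any effect of the knockdown that followed length or base composition was removed as well. It cannot be told apart here from an effect of library preparation. It called 80.3% of all tested genes. All 13 genes rose under it too, against 37.7% of all tested genes, with a median of 0.98 and a range from 0.38 for MT-CO1 to 1.67 for MT-ATP8. The mtDNA-encoded genes are 207 to 1812 bases long with a GC content of 39.6% to 47.7%. Each was corrected as a transcript of its own, also where genes share one mRNA, as MT-ATP8 and MT-ATP6 do. The 674 tested nuclear genes inside both ranges had a median of 0.36 (0.17 corrected), and 412 of them rose, 87 at least 2-fold. With scaling by library size alone, which moved the median of all genes to -0.33, 12 of the 13 were called higher (33.5% of all tested genes were higher and 55.4% lower) with a median of 0.99. MT-ND4L was then no longer called (0.0265).

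**Figure D1:**
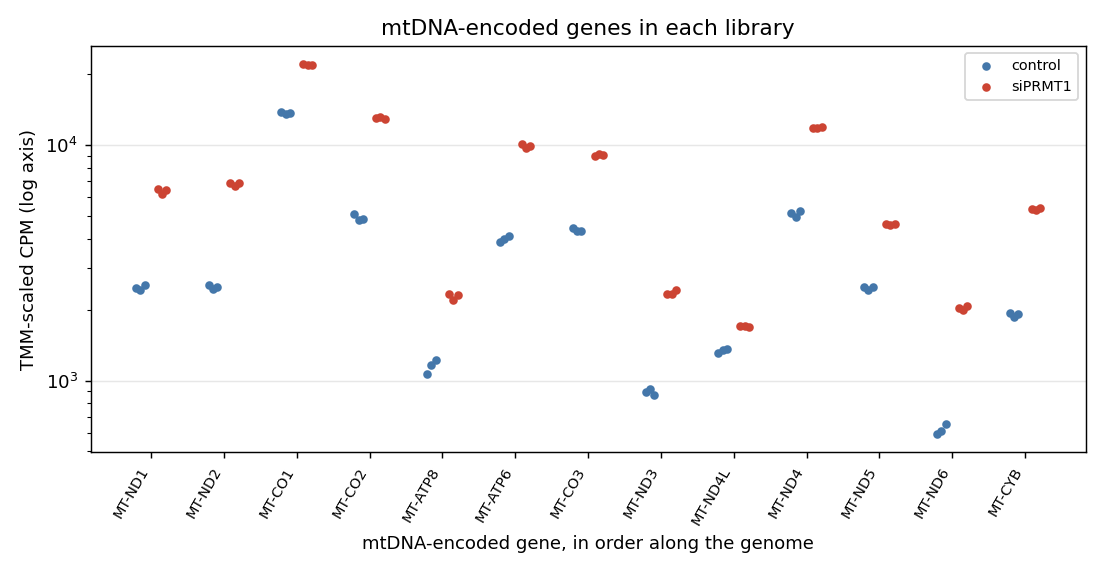
TMM-scaled CPM on a log axis for each mtDNA-encoded gene, in order along the genome, with 1 point per library (blue control, red siPRMT1, 3 each). In every gene the 3 siPRMT1 points lie above the 3 control points, closest for MT-ND4L (1355 against 1683 CPM at the nearest).

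The genes of complex I, the NADH dehydrogenase, spanned the widest range. MT-ND6 (hg38, chromosome MT, 14149 to 14673, minus strand), the one mRNA copied from the light strand, had 594, 609.9 and 655 CPM in controls, against 2025, 1992 and 2066 after knockdown. The lowest siPRMT1 library was far above the highest control. It rose by a log2 fold change of 1.71 (SE 0.0163; 1.57 corrected), higher than 98.8% of all tested genes. MT-ND4L (hg38, chromosome MT, 10470 to 10766, plus strand) had 1314, 1342 and 1355 CPM in controls, against 1698, 1707 and 1683 after knockdown, also without overlap but with a far smaller step. The change was 0.34 on the log2 scale (SE 0.0151; adjusted p = 5.76e-80, edgeR; 0.51 corrected). Without the correction, between these lay MT-ND5 (0.90), MT-ND4 (1.21), MT-ND1 (1.36, 0.82 corrected), MT-ND3 (1.40) and MT-ND2 (1.45). After the correction MT-ND3 (1.64) lay above MT-ND6. All of these are subunits of the membrane arm of the complex. MT-ND5 (hg38, chromosome MT, 12337 to 14148, plus strand), the largest of them, had 2499, 2421 and 2486 CPM in controls, against 4602, 4564 and 4622 after knockdown, without overlap. MT-ND2 (hg38, chromosome MT, 4470 to 5511, plus strand) had 2530.5, 2439 and 2488 CPM in controls, against 6874, 6689 and 6873 after knockdown, a wider gap between the groups. MT-ND1 (hg38, chromosome MT, 3307 to 4262, plus strand), which lies at the junction with the arm that takes up NADH, went from 2477 ± 70.9 to 6379.6 ± 156 CPM (SD, n = 3 each).

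MT-CYB (hg38, chromosome MT, 14747 to 15887, plus strand) encodes cytochrome b of complex III and is the last protein-coding gene of the heavy-strand transcript. It had 1927, 1861 and 1914 CPM in controls, against 5354, 5291 and 5381 after knockdown. It rose by 1.49 (SE 0.0150; 1.06 corrected), next below MT-ND6 among the 13 without the correction and below MT-ATP8, MT-ND3, MT-ND6 and MT-ND2 with it. The 3 mtDNA-encoded subunits of complex IV, cytochrome c oxidase, rose unequally. MT-CO1 (hg38, chromosome MT, 5904 to 7445, plus strand), the catalytic subunit with the haem and copper centre that reduces oxygen, had 13735, 13580.2 and 13606 CPM in controls, against 21951, 21789 and 21925 after knockdown. Its groups were well apart, but its log2 fold change of 0.68 (SE 0.0149; 0.38 corrected) was below all of the 13 but MT-ND4L, and with the correction it was the lowest. MT-CO2 (hg38, chromosome MT, 7586 to 8269, plus strand), which takes electrons from cytochrome c, went from 4906 ± 148 to 13011 ± 127 CPM (SD, n = 3 each), a change of 1.41, and MT-CO3 from 4360.1 ± 86.5 to 9068 ± 83.9 CPM, a change of 1.06 (0.59 corrected). In complex V, the ATP synthase, MT-ATP6, part of the proton channel, rose from 3992 ± 115 to 9898 ± 177 CPM (1.31) and MT-ATP8, a small stabilising subunit, from 1148 ± 79.98 to 2274 ± 78.5 CPM (0.99; 1.67 corrected).

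Levels between genes can be compared only per length. Per kilobase of gene, MT-CO1 was highest in controls at 8846 CPM, followed by MT-CO2 at 7172 and MT-ATP6 at 5863, and MT-ND6 was lowest at 1181. In the siPRMT1 libraries MT-CO2 was highest at 19022 CPM per kilobase, MT-ATP6 reached 14534 and MT-CO1 14195, and MT-ND5 was lowest at 2536. Across the 13 genes, which share their libraries, the fold change had a Pearson correlation of -0.0847 with gene length, 0.00035 with GC content and -0.46 with the log2 level per kilobase in controls. With corrected fold changes these were -0.51, -0.74 and -0.39. They are descriptions over 13 genes that are not independent.

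**Figure D2:**
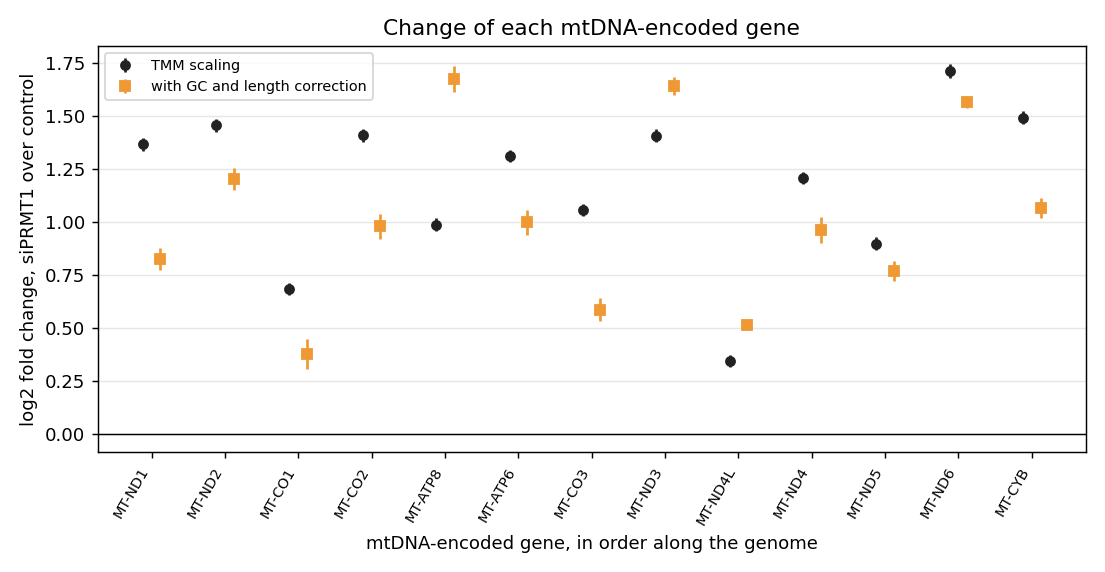
Log2 fold change of siPRMT1 over control for each mtDNA-encoded gene in order along the genome, with TMM scaling (circles) and with the GC and length correction (squares); bars are 95% intervals. All values are above 0, from 0.34 to 1.71 without the correction and from 0.38 to 1.67 with it, and neighbours on the genome differ.

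To see whether the 13 genes moved equally, each was taken as a percent of their summed counts, which does not depend on how the rest of the library was scaled. MT-CO1 made up 30.1, 30.3 and 29.8% in controls and 22.5, 22.6 and 22.5% after knockdown. MT-ND4L made up 2.88, 2.997 and 2.97% in controls and 1.74, 1.77 and 1.73% after knockdown, so the gene with the smallest fold change also had a lower share. MT-ND6 went the other way, from 1.30, 1.36 and 1.43% to 2.08, 2.06 and 2.12%. MT-CO2 went from 10.8% ± 0.269 to 13.4% ± 0.194 and MT-CYB from 4.19% ± 0.0358 to 5.497% ± 0.0233 (SD, n = 3 each). The shares of 11 genes did not overlap between the groups, 8 being higher and 3 lower after knockdown. By TMM-scaled CPM, the groups did not overlap for 89.1% of all tested genes. Shares of one sum cannot all move the same way. The shares of MT-CO3 (9.78, 9.60 and 9.46% against 9.23, 9.49 and 9.28%) and MT-ATP8 overlapped. These tallies depend on MT-CO1 being part of the sum. As shares of a sum without it, the groups overlapped for none of the other 12 genes, 7 being higher and 5 lower. MT-CO3 (13.997, 13.8 and 13.5% against 11.9, 12.3 and 11.98%), MT-ATP8 (3.33, 3.73 and 3.80% against 3.09, 2.92 and 3.05%) and MT-ND4 (16.2, 15.9 and 16.4% against 15.6, 15.8 and 15.7%) were then lower.

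The same question was put to edgeR by taking the summed counts of the 13 genes as library size, a fit added after the values were seen. Relative to their own total, 8 genes were higher and 5 lower, each at an adjusted p under 0.05 over all tested genes, where 8.79% of genes were higher and 82.7% lower by that yardstick. The values ran from -0.76 for MT-ND4L (SE 0.0174), -0.42 for MT-CO1 and -0.20 for MT-ND5 to 0.39 for MT-CYB and 0.61 for MT-ND6 (SE 0.0189). MT-CO3 was nearest to the total at -0.0430 (adjusted p = 0.0121, edgeR), and its call was lost without siPRMT1 replicate 1 (-0.0349, adjusted p = 0.102) or without siPRMT1 replicate 3 (-0.0390, adjusted p = 0.0799). MT-ATP8 was called lower (-0.11, adjusted p = 1.26e-07, edgeR), although its shares of the same total overlapped between the groups. MT-ND4 was above the total of the 13 genes at 0.11 but below a total taken without MT-CO1 (-0.0405).

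**Figure D3:**
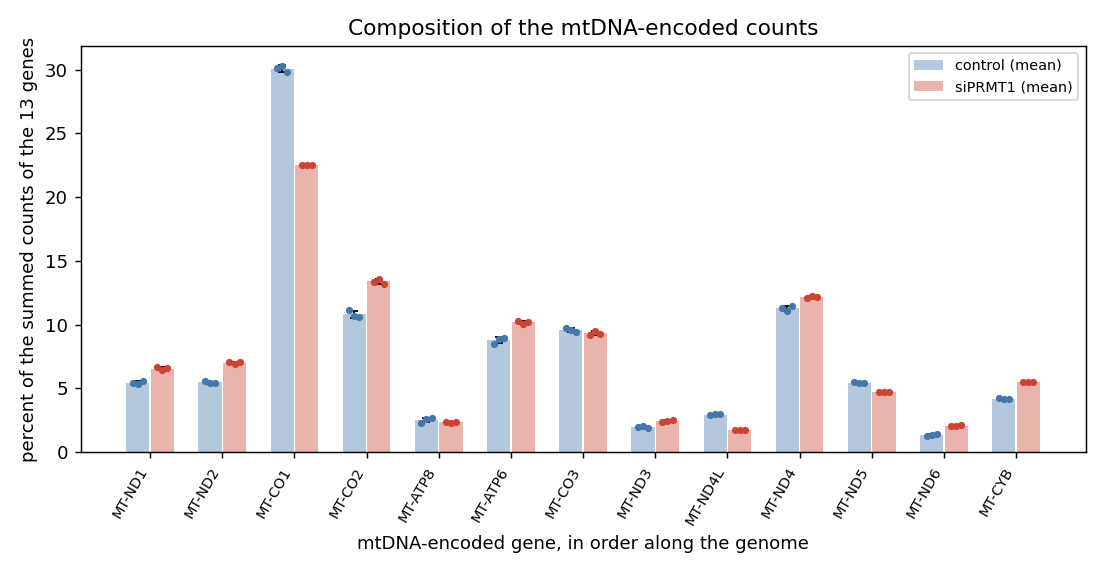
Percent of the summed counts of the mtDNA-encoded genes taken by each gene, as means with SD bars and 1 point per library (blue control, red siPRMT1). MT-CO1 is near 30.1% in controls and 22.5% after knockdown, and MT-CO2, MT-ND2, MT-CYB and MT-ND6 are higher after knockdown.

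Genes that share one mRNA did not have the same fold change. There were 3.93, 3.70 and 3.88 MT-ND4 counts for each MT-ND4L count in controls and 6.95, 6.91 and 7.06 after knockdown. The ratio was higher in all 3 siPRMT1 libraries (exact two-sided permutation test, p = 0.1, the smallest that 3 against 3 libraries allow), and the log2 fold changes differed by 0.86 (SE 0.0212, taking the 2 genes' errors as independent). For MT-ATP6 and MT-ATP8 the ratio was 3.65, 3.43 and 3.37 in controls and 4.31, 4.44 and 4.31 after knockdown, again without overlap (exact p = 0.1), a difference of 0.32 (SE 0.0220). After the correction this difference turned, with 1.67 for MT-ATP8 and 1.00 for MT-ATP6, while MT-ND4 (0.96) stayed above MT-ND4L (0.51). The correction took each gene's own length, although each pair lies on one mRNA. These were 207 bases for MT-ATP8, 681 for MT-ATP6, 297 for MT-ND4L and 1378 for MT-ND4. Genes of one mRNA thus got different corrections, and the part of this in the turn was not tested. The upstream gene of each pair is short, 297 and 207 bases, against library fragments of 200 to 500 bases per the labels' protocols. The sources used here do not say how fragments touching both genes of a pair were counted, and its part in these ratios was not tested. MT-ND6 lies next to MT-ND5 on the opposite strand, and its counts per MT-ND5 count went from 0.238, 0.252 and 0.264 to 0.440, 0.437 and 0.447 without overlap. The sources used here do not give the strand setting of the counting, so reads from MT-ND6 and from antisense RNA at its locus cannot be told apart.

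Grouped by the sequences shown above, the 6 genes that need the poly(A) tail to complete their stop codon had log2 fold changes in a narrow band, 1.06 to 1.49, with a median of 1.38. The 7 genes with a whole stop codon in the DNA ranged from 0.34 to 1.71 with a median of 0.99. After the correction the medians were 1.01 and 0.98 and both groups spread widely (0.59 to 1.64 and 0.38 to 1.67). The grouping was made with the values known and was not tested.

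Most nuclear genes for the partner subunits rose as well. Among all tested genes 44.3% were higher and 45.0% lower (37.7% and 42.6% corrected). Of 75 nuclear subunit genes of complexes I, III, IV and V, 71 rose and 3 fell, with a median of 1.08 (0.60 corrected; 66 higher and 8 lower). Examples are the complex I genes NDUFA3 (1.85; 0.76 corrected) and NDUFA13 (1.72; 0.43), the complex III genes UQCR10 (1.23; 0.70) and UQCR11 (1.16; 0.35), the complex IV genes COX6B1 (1.496; 0.71) and COX5B (1.47; 0.69), and the complex V genes ATP5F1D (1.75; 0.21) and ATP5MC2 (1.36; 0.37). NDUFS1 (-0.60; 0.54 corrected) and NDUFA5 (-0.23; 1.09 corrected) fell and had the opposite sign after the correction. All 4 complex II genes rose, with a lower median of 0.40, among them SDHB (0.80; 0.37 corrected) and SDHA (0.56; 0.27 corrected). After the correction 3 of these were higher and 1 lower (median 0.26), and with library size alone 2 were higher and 2 lower (median 0.0877). In that last fit 33.5% of all tested genes were higher and 55.4% lower.

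The balance between the genomes differed by complex. The mtDNA-encoded part of the summed subunit CPM of complex III went from 61.3% ± 0.464 in controls to 70.5% ± 0.165 after knockdown, and that of complex V from 62.9% ± 1.01 to 69.8% ± 0.491 (SD, n = 3 each). In complex IV it went down, from 92.8% ± 0.128 to 91.7% ± 0.0301: the mtDNA-encoded sum was 1.92-fold and the nuclear sum 2.24-fold higher after knockdown. For complex I it went from 85.3% ± 0.156 to 86.98% ± 0.133, but weighting each gene by its length turned the difference to -0.24 percentage points. With that weighting the differences in complexes III, IV and V were 6.60, -1.04 and 1.94 points. None of these 4 shares overlapped between the groups, with or without the weighting. By TMM-scaled CPM, 89.1% of all tested genes did not overlap either.

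The nuclear genes of mtDNA expression did not move as one. Of 22, 11 rose, 10 fell and 1 (MTERF3) did not pass, against 44.3% higher and 45.0% lower among all tested genes, and the median was 0.0898. The groups did not overlap for 21 of the 22, against 89.1% of all tested genes. After the correction 14 were higher, 5 lower and 3 not called (37.7% higher and 42.6% lower among all tested genes), with a median of 0.21. With library size alone 6 were higher and 13 lower (33.5% higher and 55.4% lower among all tested genes), with a median of -0.23. The correction left 12 genes called in the same direction, 9 higher and 3 lower, and 10 had the opposite sign, so corrected values are printed beside them.

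Among the transcription genes, POLRMT (hg38, chromosome 19, 617221 to 633537, minus strand), the mitochondrial RNA polymerase, had 31.1, 31.9 and 33.4 CPM in controls, against 76.7, 76.1 and 71.7 after knockdown. The groups lay far apart, and it rose by 1.22 (SE 0.0405; adjusted p = 1.34e-116, edgeR; 0.49 corrected). TFAM (hg38, chromosome 10, 58385345 to 58399220, plus strand), which packages mtDNA and bends it at the promoters, had 84.9, 84.8 and 82.4 CPM in controls, against 45.2, 47.8 and 47.6 after knockdown. It fell by 0.84 on the log2 scale (SE 0.0367) but was higher after the correction (0.32), its transcript being 5025 bases long with a GC content of 35.98%. There were 0.366, 0.376 and 0.405 POLRMT counts per TFAM count in controls and 1.70, 1.59 and 1.51 after knockdown (exact two-sided permutation test, p = 0.1, the smallest possible). The log2 fold changes differed by 2.06 (SE 0.0546) and the corrected ones by 0.17. TFB2M, the factor that opens the promoter with POLRMT, fell from 21.3 ± 0.152 to 17.5 ± 0.316 CPM (SD, n = 3 each; -0.28, -0.20 corrected). TFB1M, a methyltransferase of the small ribosomal RNA, rose from 10.7 ± 0.667 to 14.2 ± 0.821 CPM (0.41, 0.76 corrected), but with library size alone the rise was 0.0944 and not called.

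TEFM, the elongation factor that keeps POLRMT on the template past early stop signals, had 21.3, 22.1 and 20.6 CPM in controls, against 22.5, 23.8 and 27.7 after knockdown. One siPRMT1 library was above the other two, and the rise of 0.20 (adjusted p = 0.000701, edgeR) was not called without siPRMT1 replicate 3 (0.12, adjusted p = 0.0768) and turned with library size alone (-0.11). MTERF1, which binds inside a leucine transfer RNA gene and can end transcription there, had 9.59, 10.3 and 10.1 CPM in controls, against 7.13, 7.83 and 6.24 after knockdown. The groups did not overlap, and it fell by 0.49 on the log2 scale but was higher after the correction (0.45). MTERF3 had 20.7, 21.3 and 21.9 CPM in controls, against 20.7, 22.9 and 21.3 after knockdown, with overlapping groups and a log2 fold change of 0.0273 (95% interval -0.0900 to 0.14).

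**Figure D4:**
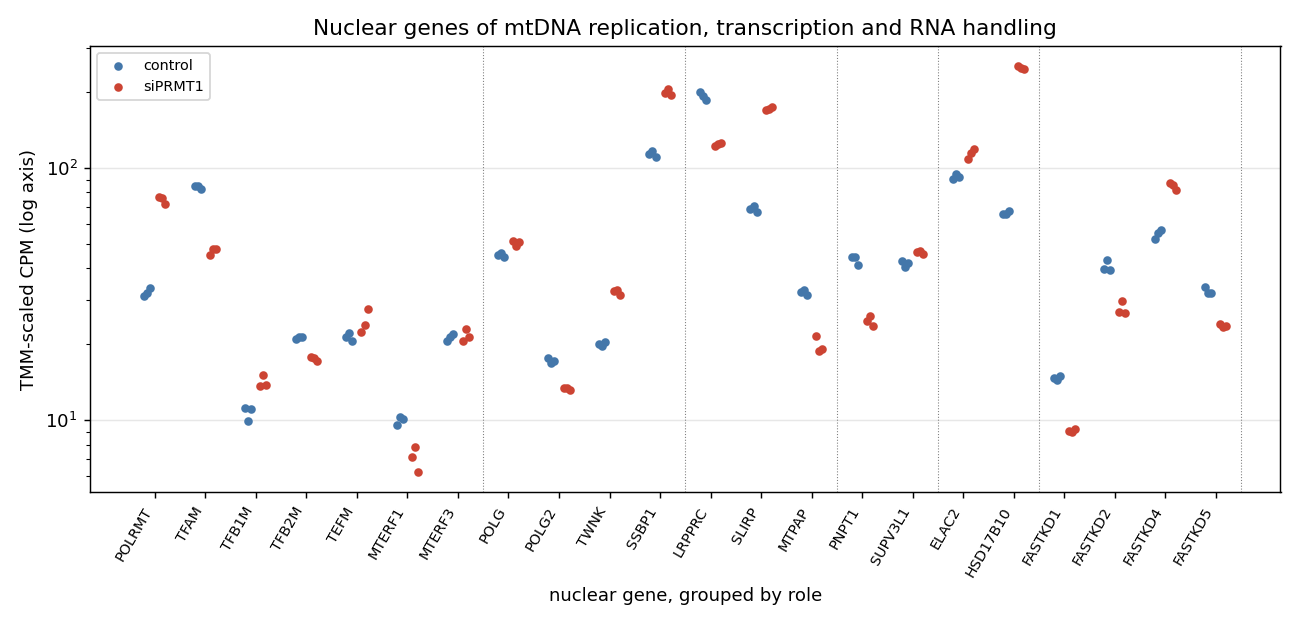
TMM-scaled CPM on a log axis for the 22 nuclear genes, grouped by role between dotted lines, with 1 point per library (blue control, red siPRMT1, 3 each). POLRMT, SLIRP and HSD17B10 are higher and TFAM, LRPPRC and PNPT1 lower after knockdown; the groups overlap only for MTERF3.

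Without the correction POLRMT rose and TFAM fell, and the promoters of both hold the same motif, so both are shown. The factors NRF1 and GABP (an ETS family factor) are the textbook nuclear activators of mitochondrial genes. RefSeq promoter windows (GRCh38.p14, 250 bases before to 50 after the transcript start) matched 19 of the 22 genes and were searched on both strands for the NRF1 core (GCGCA, any base N, then GCGC) and the ETS core CCGGAAG. The NRF1 core was found for 4 of 19 (POLRMT, TFAM, TFB1M and POLG2), against 13.03% of 10760 tested genes with a window. Of these 4, 2 rose and 2 fell, and after the correction 3 were higher and 1 (POLG2) lower, TFAM having the opposite sign. Tallies for both cores are to be read against all tested genes, of which 44.3% were higher and 45.0% lower (37.7% and 42.6% corrected). The ETS core was found for 9 of 19, against 21.95% of tested genes, and 7 of those rose and 2 (MTERF1 and POLG2) fell; after the correction 7 were higher and 2 lower, MTERF1 (0.45) and FASTKD4 (-0.24) having turned. Over all tested genes the median log2 fold change was -0.0189 with and -0.0387 without the NRF1 core, and 0.0692 with and -0.0581 without the ETS core. The windows of POLRMT (chr19:633488-633787, minus strand) and TFAM (chr10:58385160-58385459, plus strand) are printed with the NRF1 core in capitals, which in POLRMT is 2 overlapping matches. A match of letters is not evidence of binding.
POLRMT: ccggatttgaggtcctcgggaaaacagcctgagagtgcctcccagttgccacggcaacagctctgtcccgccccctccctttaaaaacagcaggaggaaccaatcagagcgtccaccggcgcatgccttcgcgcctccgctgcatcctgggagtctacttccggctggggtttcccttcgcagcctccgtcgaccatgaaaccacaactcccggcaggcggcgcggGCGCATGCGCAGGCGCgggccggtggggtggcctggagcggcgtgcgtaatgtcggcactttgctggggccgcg
TFAM: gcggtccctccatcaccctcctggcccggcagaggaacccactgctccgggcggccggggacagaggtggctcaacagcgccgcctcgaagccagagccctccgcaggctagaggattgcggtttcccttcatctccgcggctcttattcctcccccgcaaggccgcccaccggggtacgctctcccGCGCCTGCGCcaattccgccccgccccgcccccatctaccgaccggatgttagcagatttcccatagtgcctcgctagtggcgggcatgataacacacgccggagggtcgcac

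Of the 4 replication genes, 3 rose and 1 fell, against 44.3% higher and 45.0% lower among all tested genes. After the correction 2 were higher and 2 lower (37.7% and 42.6% among all tested genes). With library size alone 2 were also higher and 2 lower (33.5% and 55.4%). SSBP1 (hg38, chromosome 7, 141738334 to 141787922, plus strand), which coats single-stranded mtDNA, had 114, 117 and 111 CPM in controls, against 198, 205 and 195 after knockdown, with no overlap, and rose by 0.81 (SE 0.0251; 0.67 corrected). TWNK, the Twinkle helicase, rose from 20.1 ± 0.366 to 32.2 ± 0.823 CPM (SD, n = 3 each; 0.68, 0.49 corrected). The subunits of DNA polymerase gamma moved apart with TMM scaling, but both were lower with library size alone and after the correction. POLG, the catalytic subunit, was higher at 0.16 but lower with library size alone (-0.16) and after the correction (-0.24). POLG2, the accessory subunit that holds the enzyme on the DNA, fell from 17.2 ± 0.418 to 13.4 ± 0.145 CPM (-0.36, -0.67 corrected).

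The partners of the mRNA-stabilising complex moved in opposite directions without the correction, and both were higher with it. SLIRP (hg38, chromosome 14, 77708071 to 77761104, plus strand), a small RNA-binding protein, had 69.02, 70.5 and 67.2 CPM in controls, against 169, 172 and 174 after knockdown. All siPRMT1 values were over the highest control, and it rose by 1.32 (SE 0.0286; adjusted p = 1.75e-186, edgeR; 1.21 corrected). LRPPRC (hg38, chromosome 2, 43886224 to 43996226, minus strand), the large pentatricopeptide repeat protein that binds mitochondrial mRNAs with it, had 199.7, 192 and 186 CPM in controls, against 122, 124 and 126 after knockdown, again without overlap. It fell by 0.64 on the log2 scale (SE 0.0251) and was higher after the correction (0.33). The log2 ratio of LRPPRC to SLIRP in CPM per kilobase was -2.60, -2.69 and -2.67 in controls and -4.61, -4.60 and -4.60 after knockdown (exact two-sided permutation test, p = 0.1, the smallest possible), a difference of -1.95 that was -0.88 with the correction. MTPAP, the mitochondrial poly(A) polymerase, had 32.3, 32.8 and 31.4 CPM in controls, against 21.7, 18.8 and 19.1 after knockdown. It fell by 0.70 on the log2 scale (SE 0.0558) and was higher after the correction (0.17).

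In the degradosome, PNPT1 (hg38, chromosome 2, 55634061 to 55693823, minus strand), the polynucleotide phosphorylase that degrades mitochondrial RNA, had 44.2, 44.3 and 41.2 CPM in controls, against 24.8, 25.8 and 23.7 after knockdown. It fell by 0.80 on the log2 scale (SE 0.0494), and its corrected value was 0.0449 (adjusted p = 0.4, edgeR), which was not called. SUPV3L1, its RNA helicase, was higher at 0.15 (0.23 corrected) but lower with library size alone (-0.16).

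Without the correction, the highest rise of the 35 genes was that of HSD17B10 (hg38, chromosome X, 53431258 to 53434367, minus strand), a dehydrogenase that is also a structural part of the enzyme that trims the 5' ends of mitochondrial transfer RNAs. It had 65.8, 65.5 and 67.8 CPM in controls, against 253, 249.5 and 248 after knockdown, 3.77-fold higher with tight groups. The log2 fold change of 1.91 (SE 0.0267; adjusted p = 1.19e-273, edgeR) was higher than 99.6% of all tested genes, while the corrected value of 0.72 was below those of SLIRP and several mtDNA-encoded genes. ELAC2, which trims the 3' ends of transfer RNAs, rose from 92.4 ± 1.99 to 114 ± 5.25 CPM (SD, n = 3 each; 0.31, 0.12 corrected), but was not higher with library size alone (-0.00944).

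The FASTK family binds particular mitochondrial RNAs and shapes their processing and stability. FASTKD1 (-0.69), FASTKD2 (-0.55) and FASTKD5 (-0.46) fell and FASTKD4 rose (0.64), each without overlap between the groups. Of all tested genes, 44.3% were higher and 45.0% lower, and 89.1% had no overlap. FASTKD5, which acts at mRNA ends that no transfer RNA marks, went from 32.6 ± 1.05 to 23.8 ± 0.349 CPM (SD, n = 3 each; -0.26 corrected). FASTKD4 went from 54.6 ± 2.20 to 84.9 ± 2.67 CPM, and its corrected value was of opposite sign (-0.24). FASTKD2, needed for the large ribosomal RNA, was higher after the correction (0.48), and FASTKD1 was then not called (0.17).

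**Figure D5:**
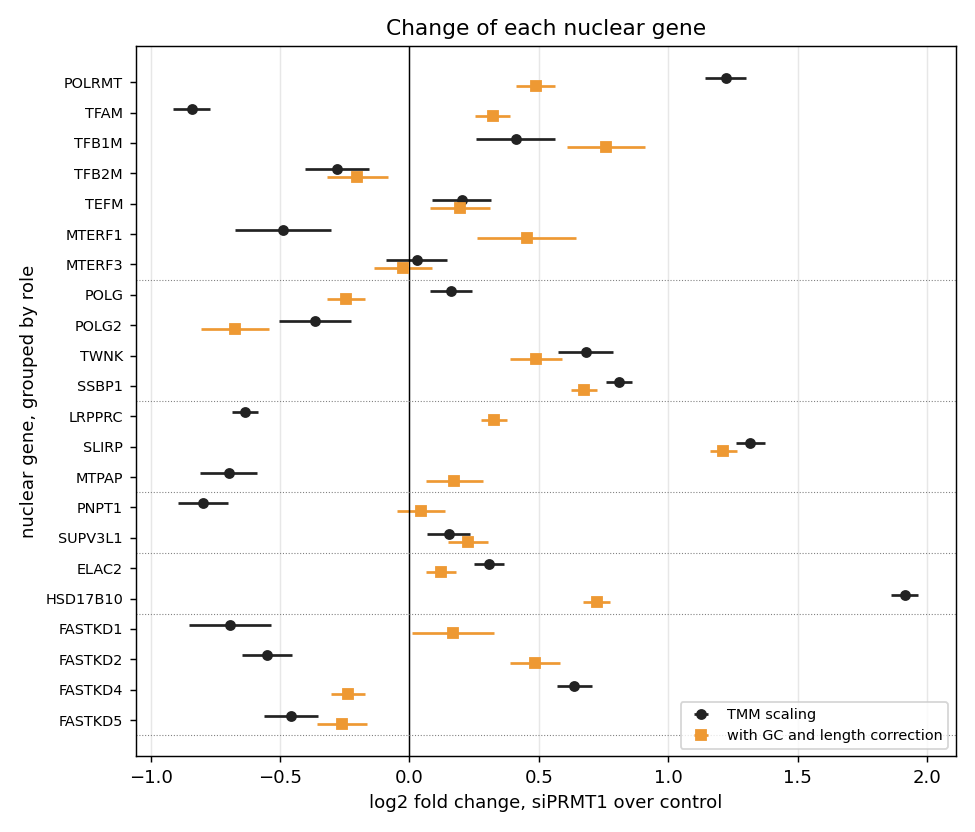
Log2 fold change of siPRMT1 over control for the 22 nuclear genes, grouped by role between dotted lines, with TMM scaling (circles) and with the GC and length correction (squares); bars are 95% intervals. SLIRP, POLRMT, TWNK, SSBP1 and HSD17B10 lie above 0 and POLG2 and FASTKD5 below 0 in both fits, while TFAM, LRPPRC and MTPAP lie on opposite sides.

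Counts of 8 of the 22 nuclear genes can share reads with another gene of the table at the same place. SLIRP overlaps SNW1 on the opposite strand (109.9 CPM on average, 0.35), POLG overlaps FANCI and POLG2 overlaps MILR1 (-0.49) on the opposite strand, and FASTKD5 lies inside UBOX5 on the same strand (12.2 CPM, 0.80). POLG also shares its strand with POLGARF (-1.89), TFB1M lies opposite TIAM2 (-0.84) and TWNK opposite MRPL43 (0.72). SSBP1 and ELAC2 overlap genes under 1 CPM. The part of shared reads in their values was not tested.

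Other genes of the pathway were called in both directions, as were genes at large. Among all tested genes 44.3% were higher and 45.0% lower. These shares were 37.7% and 42.6% in the corrected fit, and 33.5% and 55.4% with library size alone. Of 21 further genes of mtDNA maintenance and nucleotide supply, 12 rose and 7 fell, with a median of 0.16. The corrected fit had 8 higher and 8 lower (median 0.0350) and library size alone 9 higher and 11 lower (median -0.16). RRM2B, a ribonucleotide reductase subunit that supplies nucleotides to mtDNA, fell from 58.4 ± 1.53 to 12.5 ± 0.660 CPM (SD, n = 3 each; -2.23, -1.04 corrected), and so did SLC25A36 (-2.29; -1.12 corrected), a mitochondrial carrier of pyrimidine nucleotides. The thymidine phosphorylase gene TYMP (1.62; 0.23 corrected) and ATAD3B (1.37; 0.79 corrected) rose; ATAD3B has close relatives, so its value is uncertain. Of 42 further genes of mitochondrial RNA processing and modification, 25 rose and 14 fell, with a median of 0.21. The corrected fit had 23 higher and 11 lower (median 0.16) and library size alone 15 higher and 21 lower (median -0.11). RPUSD3 (1.48; 0.20 corrected), a pseudouridine synthase, and PTCD1 (1.26; 1.11 corrected) rose. ANGEL2 (-1.53; -0.63 corrected) and PDE12 (-1.27; -0.14 corrected), which removes poly(A) from mitochondrial RNA, fell.

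The lists below are to be read against all tested genes, of which 44.3% were higher and 45.0% lower. These shares were 37.7% and 42.6% in the corrected fit, and 33.5% and 55.4% with library size alone. Of 15 mitochondrial translation factors, 10 rose and 5 fell, with a median of 0.34. The corrected fit had 9 higher and 3 lower (median 0.23) and library size alone 7 higher and 6 lower (median 0.0223). TUFM, the elongation factor that brings aminoacyl-tRNA to the ribosome, rose from 131 ± 4.54 to 280.0 ± 3.23 CPM (SD, n = 3 each; 1.09, 0.23 corrected), as did OXA1L (1.04; 0.95 corrected), which inserts new proteins into the inner membrane. GFM1, the translocation factor of elongation, fell from 58.9 ± 1.60 to 18.2 ± 0.714 CPM (-1.69, -0.62 corrected), and so did GUF1 (-0.83; -0.00906 corrected). Of 11 nuclear regulators of mitochondrial genes, 3 rose and 6 fell, with a median of -0.20. The corrected fit had 3 higher and 5 lower (median -0.0469) and library size alone 2 higher and 9 lower (median -0.52). GABPA fell from 37.8 ± 0.485 to 16.6 ± 0.287 CPM (-1.19), with a corrected value of -0.0469 that was not called, and GABPB1 (-0.59) fell but was higher after the correction (0.37). ESRRA (0.64; -0.41 corrected) and TFE3 (0.16; -0.44 corrected, -0.16 with library size alone) rose. Of 21 genes of general mitochondrial proteins, 17 rose and 4 fell, with a median of 0.65. The corrected fit had 15 higher and 5 lower (median 0.22) and library size alone 13 higher and 6 lower (median 0.33). TIMM44 (1.32; 0.30 corrected) of protein import and the prohibitin gene PHB1 (1.25; 0.53 corrected) rose. The import receptor gene TOMM20 (-0.59; -0.0146 corrected) and OGDH (-0.23; -0.50 corrected), a citric acid cycle enzyme, fell.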

How the data were processed

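RNA from 6 libraries, 3 control and 3 siPRMT1, was sequenced as pairs of 150 bases, per the labels' protocols. The deposited table gives raw counts, whole and unscaled, for each gene and library beside its length and coordinates, per the file headers. Tools listed in the submitters' processing notes, without roles, are edgeR 3.40.2, Subread 1.5.1 with featureCounts, STAR 2.7.6a and fastp 0.23.2, with build hg38. Annotation, strand setting and duplicate handling: not given in the sources used here. All 13 mtDNA genes had the same coordinates in GENCODE release 44, whose canonical transcripts gave length and GC content.

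Genes were filtered with filterByExpr and tested with edgeR 4.0.16 under R 4.3.3 (TMM, glmQLFit, glmQLFTest, Benjamini-Hochberg over all tested genes, threshold 0.05). Each SE is the log2 fold change over the root of F. The correction removed splines (5 degrees of freedom each) of GC content and log length, fitted per library, as offsets. Replicate pairs were compared by chi-square over genes with at least 20 reads, and all 6 libraries were kept as replicates. Exact permutation tests of 3 against 3 cannot go below 0.1, and no p is given for sums over the members. Alternatives were RLE, upper-quartile, library-size and nuclear-gene scaling, DESeq2 1.42.0, limma-voom (limma 3.58.1), robust estimation, 2 filters, the replicate block, and leaving out each library. On simulated counts for this comparison (13667 genes), the test recovered 100% of 100 changes of 1 and 92% of 100 changes of 0.5 on the log2 scale. It made 6 false calls. The simulated spread between replicates was wider than the fitted one (common dispersion 9.77e-05), and only genes above a minimum mean count were changed. In the data 89.3% of all tested genes were called, and recovery with so many genes changed was not tested.

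All 35 members and PRMT1 are named; from each further list, up to 2 highest and 2 lowest called genes with a mean of at least 10 CPM. The members, lists and the correction were chosen with earlier results of these data known.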

Additional observations from a re-analysis of the deposited data

How the results depend on the processing

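All 13 mtDNA-encoded genes were called higher under every alternative run but library size alone, which left 12. Their median was 1.26 with upper-quartile scaling, 0.99 with library size alone, 0.98 with the GC and length correction and 0.98 with that correction and the replicate block. The nuclear median was 0.0421, -0.23, 0.21 and 0.21 in the same order. Library size alone left 6 nuclear genes higher, with 37.7% instead of 49.6% of all calls higher, and turned the sign of TEFM (-0.11), MTERF3 (-0.29), POLG (-0.16), SUPV3L1 (-0.16) and ELAC2 (-0.00944). The correction left 5 nuclear genes lower (5 with the block). It turned, without and with the replicate block, TFAM (0.32 and 0.32), MTERF1 (0.45 and 0.45), MTERF3 (-0.0250 and -0.0281), POLG (-0.24 and -0.24), LRPPRC (0.33 and 0.33), MTPAP (0.17 and 0.17), PNPT1 (0.0449 and 0.0414), FASTKD1 (0.17 and 0.17), FASTKD2 (0.48 and 0.48) and FASTKD4 (-0.24 and -0.24). MTERF3 was -0.0204 with upper-quartile scaling and ran from -0.0192 to 0.05998 over the libraries left out. The share of counts differed by 4.26 percentage points without ribosomal protein genes. The causes were not tested.

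Correlations of same-numbered deviations between the groups were -0.0104, 0.0366 and 0.0015. With a spread among replicates this near sampling noise, they cannot show whether replicate numbers pair the libraries. The replicate block called 12219 genes instead of 12243, all 13 mtDNA-encoded genes among them, and changed no call of a member. DESeq2 called 11687. Weighting by length gave -0.24, 6.60 and 1.94 points for complexes I, III and V; the ratio of LRPPRC to SLIRP differed by -0.88 with the correction. Relative to a total without MT-CO1, MT-ND4 was -0.0405. The nuclear genes had 95 to 4588 counts per library, with wider SEs than the mtDNA-encoded genes.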
